A study of Homo sapiens with 8 samples.

Results

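A set of 10 genes of chemokine signalling, 6 ligands and 4 receptors, was followed across the 3 groups of arrays in this series. The genes were taken from a list of chemokines and B-cell homing receptors: CXCL9, CXCL10, CXCL11, CCL5, CCL17 and CCL22 among the ligands, and CCR4, CCR7, CXCR4 and CXCR5 among the receptors. All 10 of 10 listed genes had a probe set that the platform annotation pairs with a single symbol, and each had exactly 1 such probe set, out of 17958 genes measured in this way. None was left out by a filter on low values.

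The arrays held total RNA of 2 human lymphoma cell lines, with 1 sample per array. The 3 groups were KMH2 cells given glucosamine for 24 h (3 arrays), Ramos cells (2 arrays) and KMH2 control cells (3 arrays). KMH2 comes from Hodgkin lymphoma, a B-cell cancer whose tumour cells have shed much of the B-cell program, and Ramos from Burkitt lymphoma, which arises from B cells of the germinal centre. Glucosamine is an amino sugar that cells take up and feed into the hexosamine pathway. All cells grew in RPMI medium with heat-inactivated serum and antibiotics, and the sources used here give no glucosamine dose. Each disease is represented by a single established line, so a difference between the lines is a difference between these cultures and not between the diseases. The array titles call both Ramos arrays control, while the series' design text places 1 of them after glucosamine, so the Ramos group rests on the cell line, and neither array was treated here as exposed or unexposed.

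Chemokines are small secreted proteins that guide leukocytes along gradients through G-protein-coupled receptors on their surface. CXCL9, CXCL10 and CXCL11 are induced by interferon and draw CXCR3-bearing T cells, CCL5 draws T cells and monocytes, and CCL17 and CCL22 draw CCR4-bearing T cells. Hodgkin tumour cells are known for secreting CCL17 and CCL22 into a tissue rich in T cells. B cells steer by CXCR5, which leads them into follicles, by CCR7, which leads them to the T-cell zone, and by CXCR4, which holds germinal centre B cells in the dark zone.

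The values are log2 signals per probe set as the authors deposited them, so a difference of 1 is a doubling. Differences are glucosamine minus control within KMH2, or Ramos minus KMH2 control, with standard errors (SE) and p-values from limma, adjusted by Benjamini-Hochberg over all 19181 probe sets tested, and a gene is said to have risen or fallen only at an adjusted p under 0.05. SDs are over the arrays of a group. Signals of different probe sets were not compared as RNA amounts, and a low signal includes background of unknown size. The median over all probe sets of the table was 5.70, and signals under it are called dim.

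The summed Hodgkin markers were higher in KMH2 and the summed B-cell markers in Ramos, and some markers moved with glucosamine. In KMH2, all 6 Hodgkin markers lay above the median of all probe sets after glucosamine and in control, with summed signals of 12.14 to 12.26 on the log2 scale after glucosamine, 9.04 to 9.05 in Ramos and 12.42 to 12.58 in control. In Ramos 5 of the 6 lay above that median too. After glucosamine 4 of the 6 fell and 0 rose, among them TNFRSF8, or CD30 (-0.73). The 5 measured B-cell markers summed to 7.96 to 8.31 after glucosamine, 13.25 to 13.39 in Ramos and 8.26 to 8.46 in control, and all 5 lay above that median in Ramos. Of these 5, PAX5 fell after glucosamine (-0.37) and 0 rose. Of 5 measured myeloid markers, 3 lay above that median in KMH2 and 0 in Ramos, with sums of 8.91 to 9.03 after glucosamine, 7.36 to 7.42 in Ramos and 8.93 to 9.07 in control. CD14 fell after glucosamine (-1.08) and CSF1R rose (0.54). Of 6 T and NK cell markers 2 did so in KMH2 and 1 in Ramos, with sums of 8.95 to 9.23, 7.91 to 7.92 and 9.26 to 9.41 in the same order, and of 6 fibroblast and endothelial markers 1 did in every group, with sums of 7.90 to 7.99, 7.89 to 7.91 and 7.98 to 8.00. In both of these lists 0 markers passed after glucosamine. None of these markers has a true zero on this scale, and their part in the results below was not tested.

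**Figure D1:**
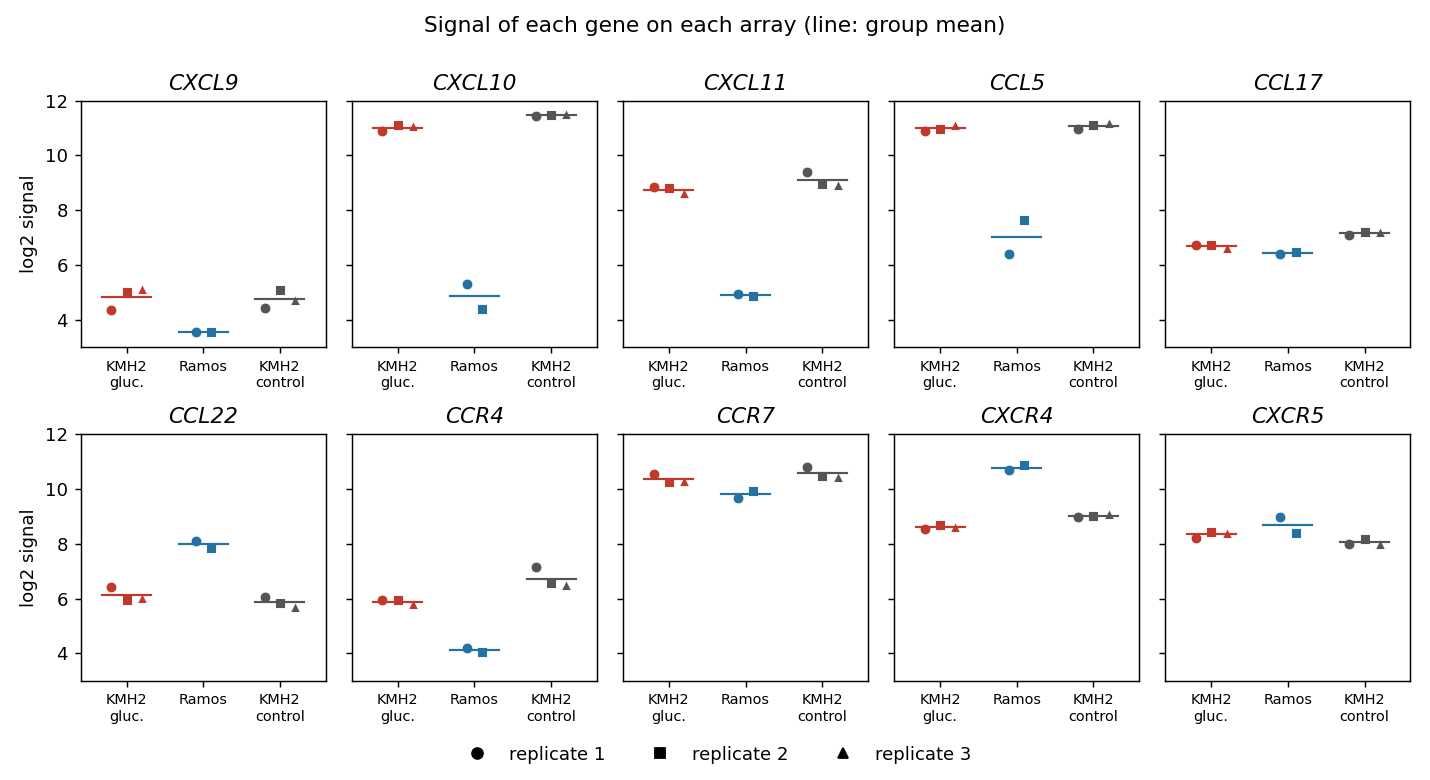
Log2 signal (vertical axis, the same in all panels) of the 10 genes on each of the 8 arrays, by group, with marker shapes for replicate numbers and a line at each group's mean. CXCL10 lies between 10.89 and 11.49 in KMH2 and between 4.42 and 5.32 in Ramos, while CXCR4 and CCL22 are highest in Ramos.

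Within KMH2, 5 of the 10 genes passed the threshold after glucosamine, 1 higher and 4 lower. CCR4, CCL17, CXCL10 and CXCR4 fell and CXCR5 rose. Across the array 25.8% of probe sets passed, 11.9% higher and 13.9% lower. With dim probe sets left out the share was larger, 4998 of 11330, and the members' count stayed at 1 higher and 4 lower, without CXCL9. The other array-wide values given here include dim probe sets. Treated and control arrays did not overlap in 6 of the 10 genes, 1 higher and 5 lower, where 40.9% of all probe sets were so separated, 20.3% higher and 20.6% lower. The median difference of the 10 genes was -0.27, against 0.01 over all probe sets tested, and their median absolute difference was 0.31, against 0.11. None of the 10 changed by 1 log2 unit or more, a size reached by 0.845% of all probe sets. In an array measurement of bulk RNA, fewer cells expressing a gene and less RNA per cell cannot be told apart.

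Between the lines, all 10 genes passed the threshold, 3 higher in Ramos and 7 lower. Across the array 43.8% of probe sets passed, 22.7% higher and 21.2% lower. CXCL10, CXCL11, CCL5, CCR4, CXCL9, CCR7 and CCL17 were lower in Ramos, and CCL22, CXCR4 and CXCR5 were higher. Ramos and control arrays did not overlap in any of the 10 genes, 3 higher and 7 lower, where 64.1% of all probe sets were so separated, 37.8% higher and 26.3% lower. Of the 10 genes, 7 differed by at least 1 log2 unit, against 15.0% of all probe sets, and the median absolute difference was 1.93, against 0.24. Both comparisons use the same 3 control arrays.

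**Figure D2:**
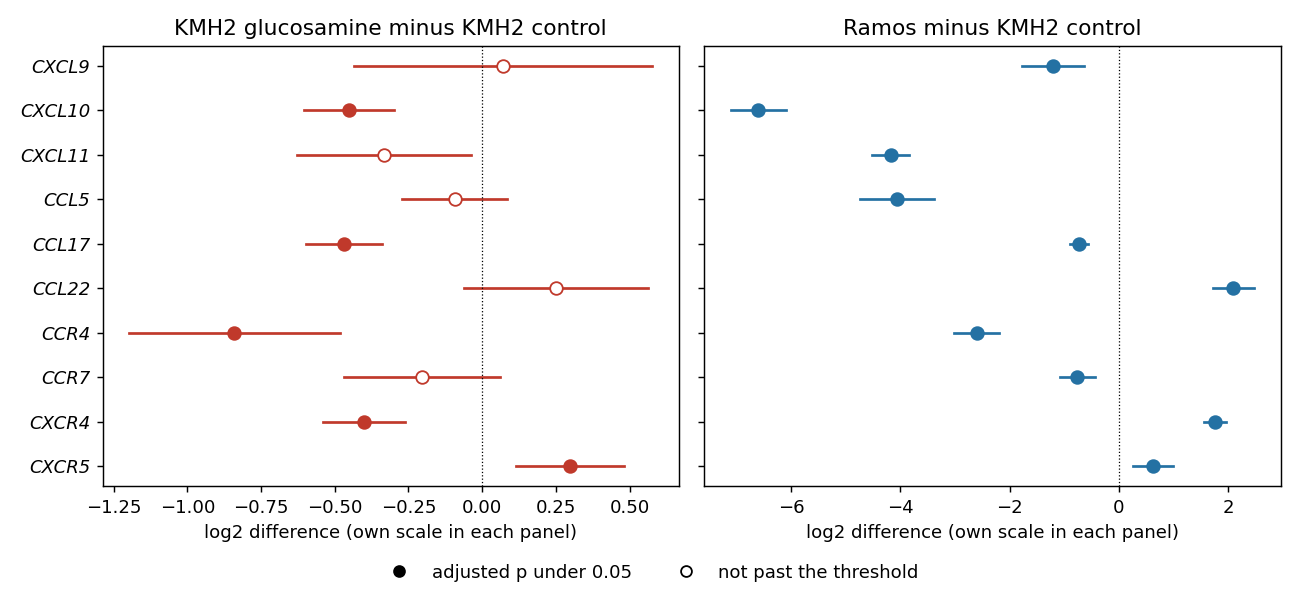
Log2 differences of the 10 genes with 95% confidence intervals from limma, for glucosamine minus control in KMH2 (left) and Ramos minus KMH2 control (right), on separate horizontal scales. Filled points have an adjusted p under 0.05: 5 of 10 on the left, led by CCR4 at -0.84, and 10 of 10 on the right, led by CXCL10 at -6.60.

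All 3 ligands of CXCR3 were lower in Ramos. CXCL10, the interferon-induced protein IP-10, gave 10.89, 11.09 and 11.06 in glucosamine-treated KMH2, 5.32 and 4.42 in Ramos, and 11.43, 11.49 and 11.49 in KMH2 control. Every KMH2 array was bright and both Ramos arrays were dim. Ramos was lower by 6.60 ± 0.22 (SE, adjusted p = 8.21e-08), a 96.9-fold difference in signal. The dim Ramos signals of CXCL10, CXCL11, CXCL9 and CCR4 include background of unknown size, so folds against them are folds of signal and not exact folds of RNA. CXCL10 also fell after glucosamine, with every treated array below every control array, to a mean of 11.02 ± 0.11, against 11.47 ± 0.04 in control (SD, n = 3 each). That difference was -0.45 ± 0.07 (SE, limma adjusted p = 0.00174), or 1.37-fold. With all 8 arrays sharing the estimate of spread it did not pass (adjusted p = 0.193), and across its alternatives the adjusted p lay between 0.000290 and 0.193. In that fit the Ramos arrays, which differ from each other by 0.91 in CXCL10, enter the spread.

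CXCL11, or I-TAC, gave 8.83, 8.80 and 8.63 after glucosamine, 4.95 and 4.86 in Ramos, and 9.40, 8.94 and 8.92 in control. Ramos was again dim on both arrays, 4.18 ± 0.15 lower than KMH2 control (SE, limma adjusted p = 1.08e-07), an 18.1-fold difference in signal. The treated arrays all lay below the controls, but the control arrays spread widely because replicate 1 was high. The difference of -0.33 ± 0.13 (SE) did not pass the threshold (limma adjusted p = 0.0977), and was -0.18 without control replicate 1. With the replicate number as a block, which compares same-numbered arrays, it did (adjusted p = 0.0196).

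CXCL9, or MIG, was dim in every group. Its signals were 4.35, 5.01 and 5.12 after glucosamine, 3.55 and 3.54 in Ramos, and 4.44, 5.09 and 4.73 in control. Treated and control arrays overlapped (0.07 ± 0.22, SE, limma adjusted p = 0.862), with a 95% confidence interval from -0.44 to 0.58. The Ramos arrays were the lowest, by 1.21 relative to control (-1.21 ± 0.25, SE, adjusted p = 0.00429).

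The 3 genes form a cluster on chromosome 4, and the stretches before their starts are shown because all 3 were lower in Ramos. Each window runs from 250 bases before the gene's start to 50 bases after, read 5′ to 3′ on the minus strand of GRCh38.p14 (RefSeq). CXCL9 is chr4:76007460-76007759, CXCL10 is chr4:76023448-76023747 and CXCL11 is chr4:76036021-76036320. Capitals mark matches, on either strand, to 3 motifs, namely NF-kappaB (GGGNNNNNCC), the interferon-stimulated response element or ISRE (GAAANNGAAA) and the gamma-activated site or GAS (TTCNNNGAA).
CXCL9: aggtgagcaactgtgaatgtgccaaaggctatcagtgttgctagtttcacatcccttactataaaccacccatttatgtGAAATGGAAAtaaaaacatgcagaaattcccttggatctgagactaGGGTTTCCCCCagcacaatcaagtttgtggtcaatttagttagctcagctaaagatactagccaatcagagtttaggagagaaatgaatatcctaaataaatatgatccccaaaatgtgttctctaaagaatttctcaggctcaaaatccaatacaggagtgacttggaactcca
CXCL10: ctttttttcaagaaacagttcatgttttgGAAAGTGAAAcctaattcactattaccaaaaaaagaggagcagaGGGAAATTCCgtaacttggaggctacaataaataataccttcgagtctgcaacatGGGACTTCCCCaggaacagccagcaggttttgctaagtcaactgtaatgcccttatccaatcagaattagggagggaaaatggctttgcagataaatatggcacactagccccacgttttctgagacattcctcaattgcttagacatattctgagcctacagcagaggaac
CXCL11: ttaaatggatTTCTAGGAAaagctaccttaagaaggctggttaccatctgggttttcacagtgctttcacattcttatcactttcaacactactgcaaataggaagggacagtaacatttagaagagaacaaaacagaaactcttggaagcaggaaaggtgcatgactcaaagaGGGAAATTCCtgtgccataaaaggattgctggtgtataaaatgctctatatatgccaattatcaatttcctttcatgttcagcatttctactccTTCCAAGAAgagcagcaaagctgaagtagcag

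CXCL9 and CXCL10 each held 1 ISRE match, at -171 to -162 and at -221 to -212 from the gene's start, counted as base 0. Of 35116 RefSeq promoter windows of the same length, 3.57% held that motif. CXCL11 held no ISRE match and 2 GAS matches, at -240 to -232 and at 18 to 26, a motif found in 7.66% of windows. The NF-kappaB letters are loose and occur in 58.7% of windows. They matched 2 times in CXCL9, where the matches at -125 and -124 overlap, 3 times in CXCL10, where those at -122 and -121 overlap, and once in CXCL11. No window of the 7 members that had one held the spaced STAT6 motif TTCNNNNGAA, which 6.44% of windows do. CCL17, CCL5 and CCR7 were not scanned. A match describes the letters and not a bound site, and the absence of one concerns this window only.

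CCL5, or RANTES, was bright in KMH2, whether or not the cells had received glucosamine. It gave 10.89, 10.97 and 11.10 after glucosamine, 6.39 and 7.63 in Ramos, and 10.96, 11.10 and 11.18 in control. The treated and control arrays overlapped, and the difference of -0.09 ± 0.08 (SE, limma adjusted p = 0.449) had a 95% confidence interval from -0.27 to 0.09. Ramos was lower on both arrays, by 16.7-fold (-4.07 ± 0.30, SE, adjusted p = 9.94e-06). The Ramos arrays stood 1.24 apart in this gene, while their median absolute difference over all probe sets tested was 0.16, and 2.66% of probe sets differed by 1 or more between them. The fold was 10.9 without Ramos replicate 1 and 25.7 without Ramos replicate 2, so its size depends on which Ramos array is used while its direction does not.

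The CCR4 ligands CCL17 and CCL22 had opposite signs between the lines, each by its own test. CCL17, or TARC, the chemokine most tied to Hodgkin tumour cells, gave 6.74, 6.73 and 6.63 after glucosamine, 6.41 and 6.47 in Ramos, and 7.11, 7.19 and 7.20 in KMH2 control. The 3 groups did not overlap, with control highest and Ramos lowest. CCL17 fell after glucosamine by 0.47 on the log2 scale (-0.47 ± 0.06, SE, limma adjusted p = 0.000708), or 1.38-fold, and the call held in all 16 alternatives. Ramos was lower than control by 1.66-fold (-0.73 ± 0.07, SE, adjusted p = 4.64e-05).

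CCL22, or MDC, was higher in Ramos. Its signals were 6.42, 5.94 and 6.01 after glucosamine, 8.11 and 7.83 in Ramos, and 6.06, 5.85 and 5.71 in KMH2 control. Both Ramos arrays exceeded all 6 KMH2 arrays, and Ramos was 4.28-fold higher than control (2.10 ± 0.17, SE, limma adjusted p = 1.59e-05). KMH2 control averaged 5.87, just above the 5.70 that bounds dim signals, so this is a fold of signal. After glucosamine the arrays overlapped those of control, and the difference of 0.25 ± 0.14 (SE) did not pass (limma adjusted p = 0.230), with a 95% confidence interval from -0.06 to 0.56. It was 0.10 without glucosamine replicate 1. With the replicate block it did (adjusted p = 0.0265). Each treated array exceeded its same-numbered control, by 0.36, 0.09 and 0.30. The promoter window of CCL22 is shown as that of the ligand with the opposite sign between the lines. It is chr16:57358533-57358832 on the plus strand of GRCh38.p14 (RefSeq), with capitals as above.
CCL22: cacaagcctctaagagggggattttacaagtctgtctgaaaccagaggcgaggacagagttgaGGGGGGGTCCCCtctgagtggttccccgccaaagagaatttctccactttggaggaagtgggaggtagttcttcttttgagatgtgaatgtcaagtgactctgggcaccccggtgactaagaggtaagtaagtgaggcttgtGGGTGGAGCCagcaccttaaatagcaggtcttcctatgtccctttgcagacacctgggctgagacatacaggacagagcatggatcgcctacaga

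CCL22 held 4 NF-kappaB matches, of which the 3 between -187 and -176 overlap in a stretch rich in G and C, and 0 ISRE, GAS or STAT6 matches. RefSeq windows were at hand for 7 of the 10 genes, and those of CCL17, CCL5 and CCR7 were not used here.

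**Figure D3:**
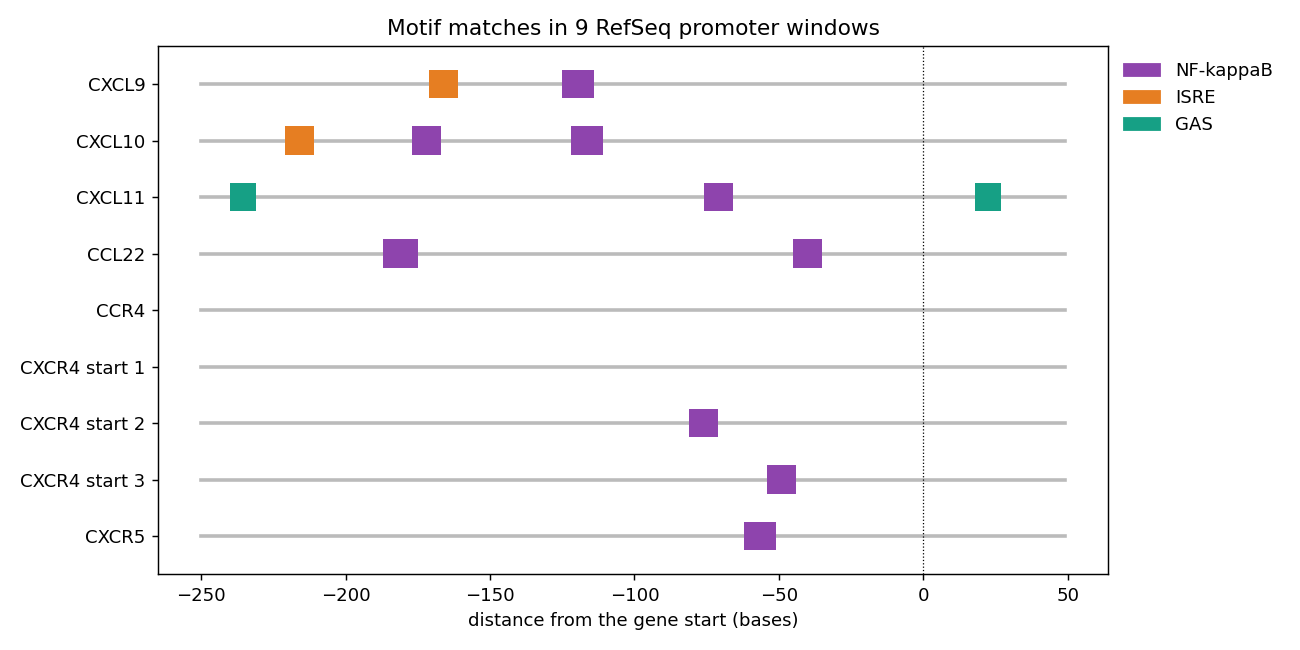
Motif matches in the 9 promoter windows of 7 of the genes, 3 of them alternative starts of CXCR4, against the distance in bases from the gene's start. ISRE matches appear in CXCL9 and CXCL10, GAS matches in CXCL11, and CCR4 and the first CXCR4 start carry none.

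CCR4, the receptor for CCL17 and CCL22 on helper and regulatory T cells, had the largest change after glucosamine of the 10 genes. Its signals were 5.93, 5.94 and 5.78 after glucosamine, 4.19 and 4.05 in Ramos, and 7.13, 6.56 and 6.49 in KMH2 control. The 3 groups were fully separated, control above glucosamine above Ramos, with control replicate 1 standing high in its group. CCR4 fell by 0.84 after glucosamine (-0.84 ± 0.16, SE, limma adjusted p = 0.00505), or 1.79-fold. CCR4 averaged 5.89 after glucosamine, just above the 5.70 that bounds dim signals, so this is a fold of signal. Its drop was -0.64 without control replicate 1 and -0.96 without control replicate 3 at the extremes of leaving out an array, and the call held in all 16 alternatives. The Ramos arrays were dim, with a signal 6.09-fold below control (-2.61 ± 0.18, SE, adjusted p = 6.62e-06).

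CXCR4, the receptor for CXCL12, fell after glucosamine and was higher in Ramos. It gave 8.54, 8.69 and 8.62 after glucosamine, 10.67 and 10.88 in Ramos, and 8.97, 9.00 and 9.08 in KMH2 control. No groups overlapped, and the replicates of each group lay within 0.21 of each other. The fall in KMH2 was 1.32-fold (-0.40 ± 0.06, SE, limma adjusted p = 0.00196) and was called in all 16 alternatives. Ramos was 3.38-fold higher than control (1.76 ± 0.08, SE, adjusted p = 7.95e-07).

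CXCR5, the follicle-homing receptor of B cells, was the only one of the 10 genes to pass as higher after glucosamine, until the replicate block added CCL22. It gave 8.21, 8.43 and 8.38 after glucosamine, 8.96 and 8.39 in Ramos, and 7.98, 8.17 and 7.99 in KMH2 control. The treated arrays all lay above the controls, by a narrow margin, and the second Ramos array lay within the range of the treated ones. CXCR5 rose by 0.30 ± 0.08 (SE, limma adjusted p = 0.0261), or 1.23-fold. That call was lost without control replicate 1 (adjusted p = 0.0842) or 3 (0.0945), without glucosamine replicate 2 (0.0844) or 3 (0.0885), with all probe sets of the table (0.0578) and with all 8 arrays in the fit (0.237), over a range of 0.00596 to 0.237. Ramos was higher than control by 0.63 ± 0.16 (SE, adjusted p = 0.0124), a difference of 0.34 without Ramos replicate 1 and 0.92 without Ramos replicate 2.

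CCR7, which carries lymphocytes toward lymph node T-cell zones, was bright in both lines. It gave 10.54, 10.27 and 10.27 after glucosamine, 9.68 and 9.93 in Ramos, and 10.80, 10.46 and 10.43 in KMH2 control. Replicate 1 was the highest in both KMH2 groups, and the groups overlapped. The difference after glucosamine was -0.21 ± 0.11 (SE, limma adjusted p = 0.247), and -0.09 without control replicate 1. With the replicate block CCR7 passed as lower (adjusted p = 0.0261). Each treated array lay below its same-numbered control, by -0.26, -0.20 and -0.16. Ramos lay below all KMH2 arrays and was 1.69-fold lower than control (-0.76 ± 0.14, SE, adjusted p = 0.00261).

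**Figure D4:**
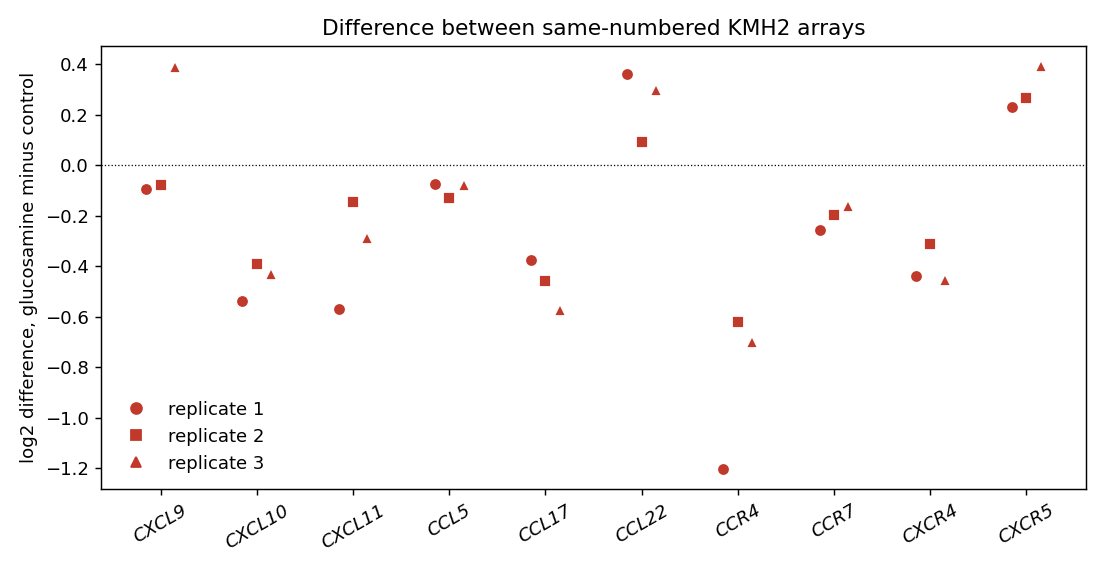
Log2 difference between each glucosamine array and the control array of the same replicate number, for the 10 genes. In 9 genes all 3 differences lie on one side of 0 and in CXCL9 they do not, and the widest spread is in CCR4, from -1.20 in replicate 1 to -0.62 in replicate 2. The share of all probe sets with 3 differences on one side was not computed.

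Read by number, the same-numbered arrays moved the same way in 9 of the 10 genes. The share of all probe sets that did so was not computed. It is at least the 40.9% whose treated and control arrays did not overlap, so the 9 are not read as a trait of these genes. CXCL9 was the exception, at -0.10, -0.08 and 0.39. With the replicate block 8 of the 10 genes passed, 2 higher and 6 lower, against 1 and 4 without it, and over the array 5748 probe sets passed with the block and 4956 without. Deviations of replicate 1 arrays from group means correlated negatively with those of other numbers in the opposite group (-0.37 to -0.27, across probe sets). The deviations within a group sum to 0, so these negative values follow largely from the positive one between the replicate 1 arrays (0.46). Without both replicate 1 arrays the members' count was 1 higher and 4 lower, as with all arrays, and the array-wide share in that fit is not given here.

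The order of the group means took 4 forms, given as a description, since Ramos and glucosamine arrays were not tested against each other. Control was above glucosamine and glucosamine above Ramos in CCL17, CXCL10, CXCL11, CCL5, CCR7 and CCR4. Of the neighbours in that order, glucosamine and control overlapped in CCL5 and CCR7, and in CXCL11 they were separate without passing the test. Ramos was above glucosamine and glucosamine above control in CCL22 and CXCR5, with glucosamine and control overlapping in CCL22 and Ramos and glucosamine overlapping in CXCR5. For CXCR4 the order was Ramos, control, glucosamine with no overlap, and for CXCL9 it was glucosamine, control, Ramos with the KMH2 groups overlapping.

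The partners of these genes, chosen for that role and outside the rule for named genes, mostly did not pass in either comparison. CXCR3, the receptor of CXCL9, CXCL10 and CXCL11, averaged 6.44 after glucosamine, 6.49 in Ramos and 6.55 in control (adjusted p = 0.375 for glucosamine and 0.604 for Ramos, limma). CCL19 and CCL21, the ligands of CCR7, and CXCL13, the ligand of CXCR5, were dim on average in every group, with adjusted p between 0.201 and 0.731 over both comparisons. CCR1, a receptor of CCL5, was dim as well, at 3.86 after glucosamine, 4.06 in Ramos and 3.82 in control. CXCL12, the ligand of CXCR4, differed by replicate number more than by treatment. Its signals were 6.25, 7.61 and 7.49 after glucosamine, 5.37 and 5.16 in Ramos, and 6.26, 7.75 and 7.88 in control, low on both replicate 1 arrays of KMH2. Ramos was lower than control in CXCL12 by 2.03 on the log2 scale (-2.03 ± 0.54, SE, adjusted p = 0.0155).

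Of 30 other chemokine ligands measured, 0 rose and 2 fell after glucosamine, where 11.9% of all probe sets rose and 13.9% fell. The 2 that fell were CX3CL1, or fractalkine (-0.34, limma adjusted p = 0.0208), and CCL1, a ligand of CCR8 (-0.35, 0.0101). CCL1 averaged 5.35 after glucosamine and 5.70 in control, at or under the cut for dim signals. The largest difference of the 30 was in CCL20, 0.68, with every treated array above every control array, but it did not pass (limma adjusted p = 0.0566). The 30 had a median difference of 0.005, against 0.01 over all probe sets. Of 16 other receptors, 0 rose and 2 fell, with a list median of -0.01. They were the scavenging receptor ACKR3, which binds CXCL12 (-0.43, limma adjusted p = 0.00281), and CCR10, a skin and mucosal homing receptor (-0.41, 0.00395). Most of the 30 ligands and 16 receptors were dim in both KMH2 groups, ACKR3 among them (4.63 after glucosamine, 5.06 in control). Whether the low counts reflect signals too near background to show a change was not tested. Between the lines, 5 ligands were higher in Ramos and 5 lower, of 30, where 22.7% of all probe sets were higher and 21.2% lower. The 3 with the smallest p were CX3CL1 (-3.25), CCL20, the ligand of CCR6 (-2.97), and XCL1, or lymphotactin (-0.81). XCL1 was dim in both Ramos (4.81) and KMH2 control (5.62). Of 16 receptors 3 were higher in Ramos and 3 lower, and those with the smallest p were the scavenger ACKR4 at 3.17, the fractalkine receptor CX3CR1 at -2.94 and CCR10 at -1.01. The list medians were 0.02 and 0.03, against 0.06 over all probe sets.

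Other genes of lymphocyte positioning moved in both directions. Array-wide, 25.8% of probe sets passed after glucosamine and 43.8% between the lines, and the counts that follow are to be set against these shares. Of 11 positioning and adhesion genes, 1 rose after glucosamine and 3 fell (list median -0.10, against 0.01). VCAM1, a cell adhesion molecule that binds the integrin VLA-4, rose by 0.53. S1PR1, the sphingosine phosphate receptor of lymphocyte egress, was at -0.35. GPR183, or EBI2, the oxysterol receptor that places B cells at the follicle edge, was at -0.55. GPR183 was dim in every group, averaging 3.86 after glucosamine, 5.05 in Ramos and 4.41 in control. Between the lines 5 were higher in Ramos and 4 lower, with S1PR1 at -3.46, VCAM1 at -3.39 and the LFA-1 chain ITGAL at 3.10 (list median -0.12, against 0.06). Of 15 G-protein signalling and receptor turnover genes, 2 rose and 5 fell after glucosamine, with RGS13, which dampens chemokine receptor signals in germinal centre B cells, at -0.82, the receptor kinase GRK6 at -0.72 and DOCK2, a Rac activator of lymphocyte migration, at -0.47. The median of that list was 0.06, on the other side of 0 from most of the members that passed. In Ramos 8 of these 15 were higher and 3 lower, with DOCK8 at 5.34, RGS13 at 3.78 and RGS16 at 3.11 (list median 0.43).

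Among 14 transcription factors known to act on chemokine or homing receptor genes, 3 rose and 4 fell after glucosamine, where 25.8% of all probe sets passed (list median 0.02). GATA3, a helper T-cell factor that Hodgkin tumour cells also make, was at -1.04, the AP-1 family member BATF3 at -0.87 and STAT6, the interleukin-4 signal transducer that induces CCL17, at -0.83 (limma adjusted p from 2.74e-05 to 0.000189). Between the lines 4 were higher in Ramos and 6 lower, where 43.8% of all probe sets passed (list median -0.13), with IRF8, a B-cell and myeloid interferon regulatory factor, at 5.82, BATF3 at -3.79 and BCL6, the germinal centre repressor, at 2.79. Whether any of these changes bears on the chemokine genes was not tested.

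The genes whose pattern over the 8 arrays was nearest to each member were neither chemokines nor chemokine receptors. Nearness was the mean absolute difference of gene-centred log2 signals, searched over 17957 other genes for the 8 members that ranged over at least 1 log2 unit, so it is set mainly by the gap between the lines. CXCL10 was nearest to CCND2, cyclin D2 (0.12), and to MAGEA4, a cancer-testis antigen (0.19). CCL5 was nearest to EMP3 (0.15) and SDC4, a syndecan (0.16), and CXCL11 to MSRA (0.11) and HMGN3 (0.11). CCR4 was nearest to C1orf54 (0.11) and NTM (0.13), and CCR7 to ARID3A, a B-cell transcription factor (0.04), and ATP6V0E2 (0.06). For CXCR4 these were PCYT2 and ZBTB2 (0.08 each), for CCL22 NMNAT3 (0.10) and KCNK12 (0.11), and for CXCL9 OR2V2 (0.10) and PTPRG (0.11). CCL17 and CXCR5 ranged over 0.80 and 0.98 and were not searched.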

How the data were processed

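Total RNA was biotin-labelled and hybridised to Affymetrix HuGene-1_1-st-v1 array strips, per the labels' protocols. The authors deposited log2 signals for 33297 probe sets on 8 arrays; the log2 unit was inferred from their range of 1.94 to 13.21, and how the signals were background-corrected, summarized and normalized is not given in the sources used here. Array medians lay between 5.62 and 5.68. The few arrays limit the precision, and the design text calls the KMH2 arrays biological replicates but does not say so of Ramos.

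The platform annotation gave 19181 probe sets exactly 1 symbol, 2055 several and 12061 none; 38 Entrez identifiers did not match RefSeq and 0 symbols changed. For a gene with several probe sets the one with the highest mean was taken. limma 3.58.1 in R 4.3.3 (lmFit, eBayes, two-sided, Benjamini-Hochberg over the 19181) was fitted to the 6 KMH2 arrays for glucosamine and to all 8 arrays in 3 groups for Ramos, and was tested on simulated data. Deviations from the group means correlated between same-numbered KMH2 arrays (0.46, 0.23 and 0.23). Between different numbers, replicates 2 and 3 correlated about as much (0.25 and 0.18) and those with replicate 1 negatively (-0.37 to -0.27), so numbers 2 and 3 are not told apart as pairs. Deviations within a group sum to 0, so these correlations constrain each other and set replicate 1 apart without establishing pairs. Every same-numbered correlation was above 0.1, and the design text speaks of replicates before and after treatment. Blocked values are therefore given where they change a call, with the pairing unproven.

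The members, the 5 gene lists and the marker lists were chosen with earlier results of these data known. Named genes were all members, the members of each list past the threshold with the 3 smallest p-values per comparison, and the 2 nearest genes of each member; partners were named outside this rule. Alternatives were quantile normalization, median centring, a filter on dim probe sets, all probe sets, array weights, an intensity trend, the mean of a gene's probe sets, leaving out each array or both replicate 1 arrays, other arrays in the fit, and the replicate block.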

Additional observations from a re-analysis of the deposited data

How the results depend on the processing

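For Ramos against KMH2 control, all 159 values of the 10 genes kept their direction and their side of the threshold in 16 alternatives; CXCL9 has no value where dim probe sets were left out. For glucosamine, 145 of 159 did, 7 were no longer past the threshold, 4 were newly past it and 3 changed sign. The calls of CCL17, CCR4 and CXCR4 held in every alternative run. The gene called higher, CXCR5, was lost with all probe sets of the table (0 called higher) and with all 8 arrays in the fit (0), and leaving out single arrays gave 0 to 1. With all 8 arrays 2177 probe sets passed, against 4956. The replicate block gave 2 called higher, CCL22 joining CXCR5, and 6 called lower, CXCL11 and CCR7 joining the others, and it changed no other call among the 10. CXCL11 also passed with array weights (adjusted p = 0.0353). CXCL9, not called at 0.07, was at -0.084 without KMH2 control replicate 1, -0.021 without glucosamine replicate 2 and -0.075 without glucosamine replicate 3, and leaving out single arrays gave -0.084 to 0.31. The cause of these shifts was not tested. Signals near background limit what can be seen of CXCL9 in every group and of CXCL10, CXCL11 and CCR4 in Ramos. The means of CCL22 in KMH2 control (5.87) and of CCR4 after glucosamine (5.89) lay just above the 5.70 that bounds dim signals.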
